A study of Mus musculus with 10 samples.

Results

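Eukaryotic initiation factor 2B (eIF2B) is encoded by 5 genes, Eif2b1 to Eif2b5, and these genes were followed here in sorted mouse fetal oocytes. The members were the genes with exactly these symbols in the deposited expression table, matched by gene ID to the count table. All 5 were found, out of 55536 genes, and all 5 passed the filter on low counts. RNA sequencing was done on 10 libraries of female E16.5 oocytes, 5 from Taf4b-heterozygous and 5 from Taf4b-deficient embryos. TAF4b is a germ-cell-enriched subunit of TFIID, the complex that binds core promoters. The labels give the strain as C57BL/6, and all embryos came from parents carrying Oct4-EGFP on both alleles and 1 mutant Taf4b allele. Live GFP-positive germ cells were obtained by flow sorting of dissociated gonads, and the comparison group is heterozygous, not wild type. The libraries carry 3 litter dates, and the labels do not tell whether each library is a different embryo. P-values therefore measure how these libraries vary, which may be technical in part.

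eIF2 is the GTP-binding factor that brings the initiator methionyl-tRNA to the small ribosomal subunit. It leaves each initiation event bound to GDP, and eIF2B exchanges that GDP for GTP so that eIF2 can work again. The catalytic part of eIF2B is made of the epsilon subunit (Eif2b5), which carries the exchange activity, and the gamma subunit (Eif2b3), and the regulatory part is made of alpha (Eif2b1), beta (Eif2b2) and delta (Eif2b4), which sense phosphorylated eIF2. When stress kinases phosphorylate the alpha subunit of eIF2, it inhibits eIF2B, general translation falls and translation of the transcription factor ATF4 rises, a programme known as the integrated stress response. Inherited mutations in the human genes cause leukoencephalopathy with vanishing white matter, and in some affected women, with mutations in EIF2B2, EIF2B4 or EIF2B5, the disease comes with ovarian failure (ovarioleukodystrophy).

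In GRCm38 coordinates, as the deposited table gives them, Eif2b1 (ENSMUSG00000029388) lies on the minus strand of chromosome 5 from 124570213 to 124579131 and Eif2b4 (ENSMUSG00000029145) on the same strand from 31187558 to 31193430. Eif2b2 (ENSMUSG00000004788) lies on the plus strand of chromosome 12 from 85219481 to 85226628. Eif2b3 (ENSMUSG00000028683) spans chromosome 4 from 117019402 to 117087306, plus strand, and Eif2b5 (ENSMUSG00000003235) chromosome 16 from 20498817 to 20509323, plus strand. The subunits are thus spread over 4 chromosomes, and GENCODE M21 places all 5 at the same positions. A single member shares exon sequence with a neighbour. The 5′ end of Eif2b4 overlaps that of Snx17, a sorting nexin gene on the opposite strand, over 204 bases, all of them exonic in both.

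Promoter sequence was at hand in the RefSeq table (GRCm38.p6) for Eif2b1, Eif2b2, Eif2b4 and Eif2b5. The 250 bases before each start were searched on both strands for a CCAAT box (CCAAT, bound by NF-Y), a GC box (GGGCGG, bound by SP factors), an ETS core (CGGAAG) and a TATA box (TATAAA). No match overlaps another in these windows. Eif2b2 and Eif2b4, the subunits with the largest differences between genotypes, are shown because each has a CCAAT box at nearly the same distance from its start, at bases 68 to 64 before the start in Eif2b2 and at bases 64 to 60 in Eif2b4. In Eif2b5 the CCAAT box lies further out, at bases 164 to 160. Positions are counted back from the RefSeq start. The Eif2b4 window lies in exon sequence of other Eif2b4 transcripts and also holds exon sequence of Snx17. In the Eif2b1 window, 242 of the 250 bases are exon sequence of the neighbouring gene Gtf2h3. The CCAAT box, in capitals, is on the strand opposite the gene in Eif2b2 and Eif2b4, where it reads ATTGG on the gene's strand. In Eif2b5 it is on the gene's own strand. The windows of 30 bases are chr12:85219401-85219430 (plus strand), chr5:31193186-31193215 (minus strand) and chr16:20498641-20498670 (plus strand), each read 5′ to 3′ on the gene's strand.
Eif2b2: aacacgtttctgATTGGcctcagcagaggg
Eif2b4: gagacgctcctaATTGGgaacccaacatcc
Eif2b5: ttcttagcttgtCCAATccaacagcactca

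The whole window of Eif2b2 (chr12:85219231-85219480, plus strand) follows, with its CCAAT box and its GC boxes in capitals, because it holds the most matches of the 4 windows.
Eif2b2: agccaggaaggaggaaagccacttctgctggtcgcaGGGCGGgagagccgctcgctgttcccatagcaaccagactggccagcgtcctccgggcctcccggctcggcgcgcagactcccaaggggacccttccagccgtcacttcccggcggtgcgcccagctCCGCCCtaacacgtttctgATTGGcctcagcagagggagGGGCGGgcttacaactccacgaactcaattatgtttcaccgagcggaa

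Eif2b2 had 3 GC boxes in this window, Eif2b1 also had 3 and no CCAAT box, Eif2b4 had 1 GC box, at bases 18 to 13, beside its CCAAT box, and Eif2b5 had none. No window held the ETS core or the TATA box. Of 32851 mouse promoter windows of the same length, 33.8% held the CCAAT box, 32.7% the GC box, 11.0% both, 13.6% the ETS core and 12.4% the TATA box. A match describes the letters and does not show that a factor binds there.

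Library totals ran from 16707216 to 26983565 counts, and the subunits took between 526 and 19443 counts in any library. Counting error was not compared with the spread between libraries. The sorted cells carried germ cell transcripts. The 8 germ cell markers had counts in every library and summed to between 5870 and 10282 CPM (counts relative to library size, scaled by the trimmed mean of M-values), against 19.9 to 83.0 CPM for 10 pregranulosa and stroma markers and 81.0 to 229 CPM for 7 macrophage markers. Erythroid markers summed to 719, 2084 and 1606 CPM in heterozygous 4, heterozygous 5 and deficient 5 and to between 65.0 and 222 CPM elsewhere, so these 3 libraries are called globin-high below. Taf4b had 65.7 CPM in the library labelled heterozygous 4, inside the deficient range of 58.2 to 81.7 CPM, while the remaining heterozygous libraries had 101 to 290 CPM. In TPM, Taf4b did not overlap between genotypes. TPM and CPM scale that library differently, however. Eif2b1, for example, had 105 TPM at 185 CPM there and 70.1 TPM at 173 CPM in heterozygous 1. The TPM values therefore do not settle the label of heterozygous 4, which the targeted gene leaves uncertain. In CPM, all 5 subunits were at their highest in heterozygous 3.

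The regulatory subunits Eif2b4 and Eif2b2 had the lowest fold changes of the 5 genes in Taf4b-deficient oocytes, and Eif2b4 was the only one whose genotypes did not overlap. Eif2b1 and Eif2b5 differed less, and the mean of Eif2b3 was alike in both genotypes while its spread was not. By edgeR's quasi-likelihood test none of the 5 passed an adjusted p of 0.05, and none of 19244 genes did (0.00% called). At an unadjusted p under 0.05, the subunits Eif2b2 and Eif2b4 had a lower level in deficient libraries, 2 of 5, beside 9.13% of all genes tested in that direction and 16.6% in both. The 5 subunits and the gene lists were chosen with earlier results of these data known. Comparisons with all genes, here and below, are therefore descriptions and not tests. The median log2 fold change (deficient over heterozygous) was -0.31 over the 5 subunits, 4 of them negative, and -0.02 over all genes, of which 51.1% were negative.

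Eif2b4 encodes the delta subunit, part of the regulatory core that reads eIF2 phosphorylation. It was at 43.7, 42.4, 116, 57.2 and 58.7 CPM in heterozygous 1 to 5 and at 27.6, 33.5, 31.0, 31.2 and 34.2 CPM in deficient 1 to 5. Every deficient library lay below every heterozygous library, which held for 1.60% of all genes tested, and 3.53% did not overlap in either direction. The highest heterozygous value came from heterozygous 3. Means were 63.5 ± 30.0 CPM (SD, n = 5) and 31.5 ± 2.57 CPM (SD, n = 5), so the deficient libraries were both lower and closer together. The log2 fold change was -1.01 ± 0.26 (SE), which puts the deficient level at 49.6% of the heterozygous level (edgeR adjusted p = 0.145). Of all genes tested, 1.18% had a smaller p. Without heterozygous 3 the difference was -0.69 (adjusted p = 0.142), and without heterozygous 1 it was -1.12 and called by edgeR (adjusted p = 0.0432). Without heterozygous 4, whose label is uncertain, it was -1.05 by edgeR (adjusted p = 0.310). Of the edgeR fits with 1 library left out, only that without heterozygous 1 called Eif2b4.

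The difference in Eif2b4 had the same sign within each of the 3 litter dates, at -0.64, -1.33 and -0.84 on the log2 scale in date order, with only 1 or 2 libraries of a genotype behind each value. Without the globin-high libraries it was -1.13 ± 0.32 (SE) by edgeR (adjusted p = 0.287). In the authors' deposited table, Eif2b4 had a log2 fold change of -0.97 ± 0.27 (SE) and an adjusted p of 0.0125, and was called lower, as were 3.36% of the genes with an adjusted p there, with 6.55% called in either direction. Snx17, which shares the 204 bases with Eif2b4, had a heterozygous mean of 103 ± 20.4 CPM (SD, n = 5) and a deficient mean of 91.4 ± 4.57 CPM (SD, n = 5). Its groups overlapped and its log2 fold change was -0.17 ± 0.17 (SE). How strand was handled in counting is not given in the sources used here. Which gene the reads of the shared stretch were counted for is therefore unknown.

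Eif2b2 encodes the beta subunit of the same regulatory core. It was at 38.6, 45.6, 75.2, 65.7 and 63.3 CPM in heterozygous 1 to 5 and at 34.7, 32.3, 30.9, 30.5 and 46.7 CPM in deficient 1 to 5. Deficient 5, a globin-high library, lay above heterozygous 1 and heterozygous 2, so the groups overlapped. The other 4 deficient libraries were below every heterozygous library. Means were 57.7 ± 15.1 CPM (SD, n = 5) and 35.0 ± 6.77 CPM (SD, n = 5), the log2 fold change was -0.72 ± 0.22 (SE), and edgeR's adjusted p was 0.162. Within the 3 litter dates, from the earliest, it was -0.27, -1.15 and -0.74, and without the globin-high libraries the fold change was -0.73 ± 0.24 (SE) by edgeR. Without heterozygous 1 it was -0.83 and called by edgeR (adjusted p = 0.0481). No other edgeR fit with 1 library left out called Eif2b2. Without heterozygous 4 its log2 fold change was -0.67 by edgeR (adjusted p = 0.363). The authors' deposited table gives Eif2b2 a log2 fold change of -0.64 ± 0.21 (SE) and an adjusted p of 0.0468, so 2 of the 5 subunits, Eif2b2 and Eif2b4, are called lower there. Of all genes with an adjusted p there, 3.36% are called lower.

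The calls on Eif2b2 and Eif2b4 depended on the tool and the libraries. Among 29 alternatives to the main fit, Eif2b4 was called in 5 and Eif2b2 in 3. The values within the 3 single litter dates, which had no test, are among the 29. So are DESeq2 fits chosen after the data were seen, with litter date and without the globin-high libraries. Another such fit used a grouping of libraries inferred from the authors' fold changes. It rebuilds the deposited fold changes, so its calls on Eif2b2 and Eif2b4 are not separate from the deposited ones. DESeq2 on genotype alone called Eif2b4 lower (adjusted p = 0.0236) and not Eif2b2 (adjusted p = 0.0574), with 2.36% of all genes called lower. With litter date as a covariate DESeq2 called both (adjusted p = 0.00490 and 0.0220), with 4.69% of genes called lower. With the same covariate edgeR called neither (adjusted p = 0.0832 for Eif2b4 and 0.0912 for Eif2b2), and 0 genes in all. limma voom with quality weights called Eif2b4 lower (adjusted p = 0.0446), with 1.29% of genes called lower. Without heterozygous 1, edgeR called both and 1.65% of genes lower. DESeq2 without the globin-high libraries called neither (adjusted p = 0.0553 for Eif2b4 and 0.127 for Eif2b2), with 0.793% of genes called lower.

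**Figure D1:**
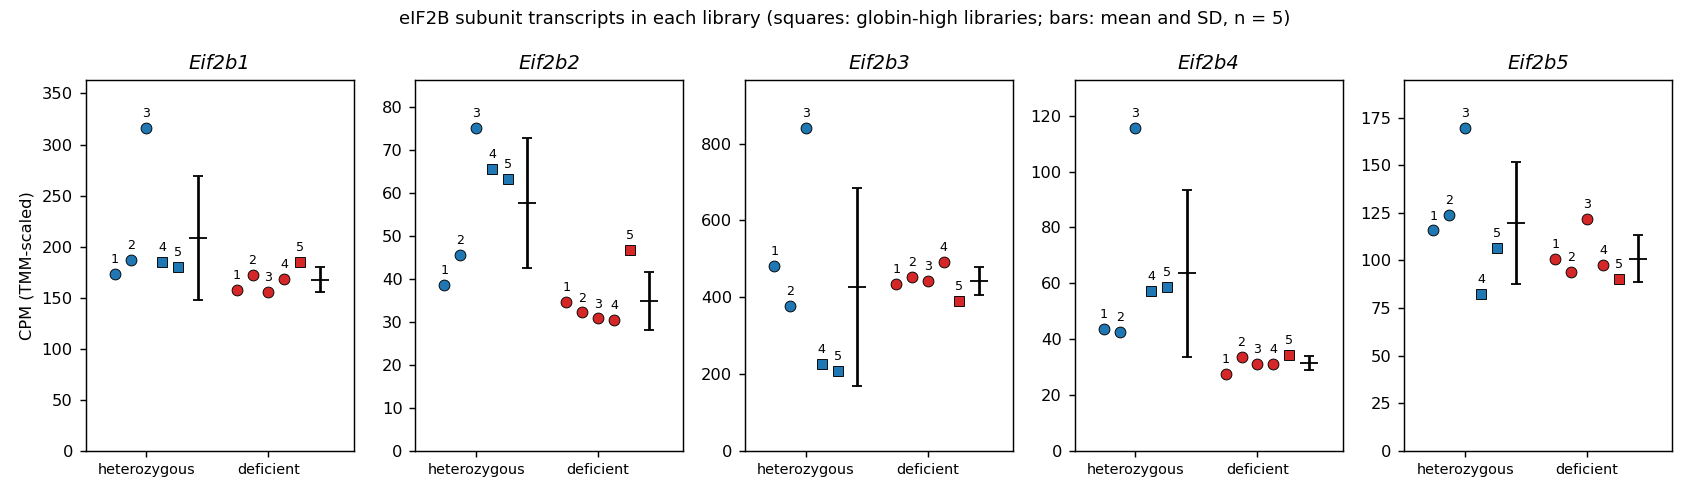
TMM-scaled CPM (linear axes from 0) of each eIF2B subunit in every library, heterozygous in blue and deficient in red, with numbers giving the replicate, squares the globin-high libraries and bars the mean and SD of 5 libraries. Eif2b4 is the only subunit without overlap, with deficient libraries at 27.6 to 34.2 CPM and heterozygous libraries at 42.4 to 116 CPM, and heterozygous 3 is the highest library for every subunit.

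Eif2b1 encodes the alpha subunit, which joins the regulatory core. It was at 173, 187, 316, 185 and 180 CPM in heterozygous 1 to 5 and at 158, 172, 156, 169 and 185 CPM in deficient 1 to 5. Apart from heterozygous 3, all libraries lay within 156 to 187 CPM and the groups overlapped. The log2 fold change was -0.31 ± 0.20 (SE, adjusted p = 0.437 by edgeR), and it was -0.12 without heterozygous 3. Gtf2h3, a TFIIH subunit gene that is 8 bases from the 5′ end of Eif2b1, on the other strand, was likewise highest in heterozygous 3, at 248 CPM against 115 to 134 CPM in the remaining 9 libraries. Ddx55, 552 bases away, had a log2 fold change of -0.09 ± 0.19 (SE).

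Eif2b5 encodes the epsilon subunit with the exchange activity. It was at 116, 124, 170, 82.6 and 107 CPM in heterozygous 1 to 5 and at 101, 94.0, 122, 97.9 and 90.1 CPM in deficient 1 to 5. The lowest and the highest library were both heterozygous, so the deficient range lay inside the heterozygous one. The log2 fold change was -0.25 ± 0.20 (SE, adjusted p = 0.553 by edgeR) and -0.10 without heterozygous 3.

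Eif2b3 encodes the gamma subunit, the partner of epsilon in the catalytic part. It was at 482, 376, 841, 227 and 208 CPM in heterozygous 1 to 5 and at 434, 454, 442, 491 and 390 CPM in deficient 1 to 5. The deficient libraries kept to a narrow range, while among heterozygous libraries the globin-high heterozygous 4 and 5 were lowest and heterozygous 3 was highest. Deficient 5, also globin-high, was the lowest deficient library but lay above heterozygous 2. Means were 427 ± 257 CPM (SD, n = 5) and 442 ± 36.5 CPM (SD, n = 5), with a log2 fold change of 0.05 ± 0.33 (SE, adjusted p = 0.956 by edgeR). Its direction turned with the libraries used: it was -0.32 ± 0.26 (SE) without the globin-high libraries and 0.45 ± 0.24 (SE) without heterozygous 3, neither past the threshold by edgeR (adjusted p = 0.621 and adjusted p = 0.356). In the third litter date, with heterozygous 5 and deficient 4 and 5, the log2 difference was 1.07. In these bulk samples, fewer cells of a type and less RNA per cell cannot be told apart, and the part of the erythroid cells in these values was not tested.

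**Figure D2:**
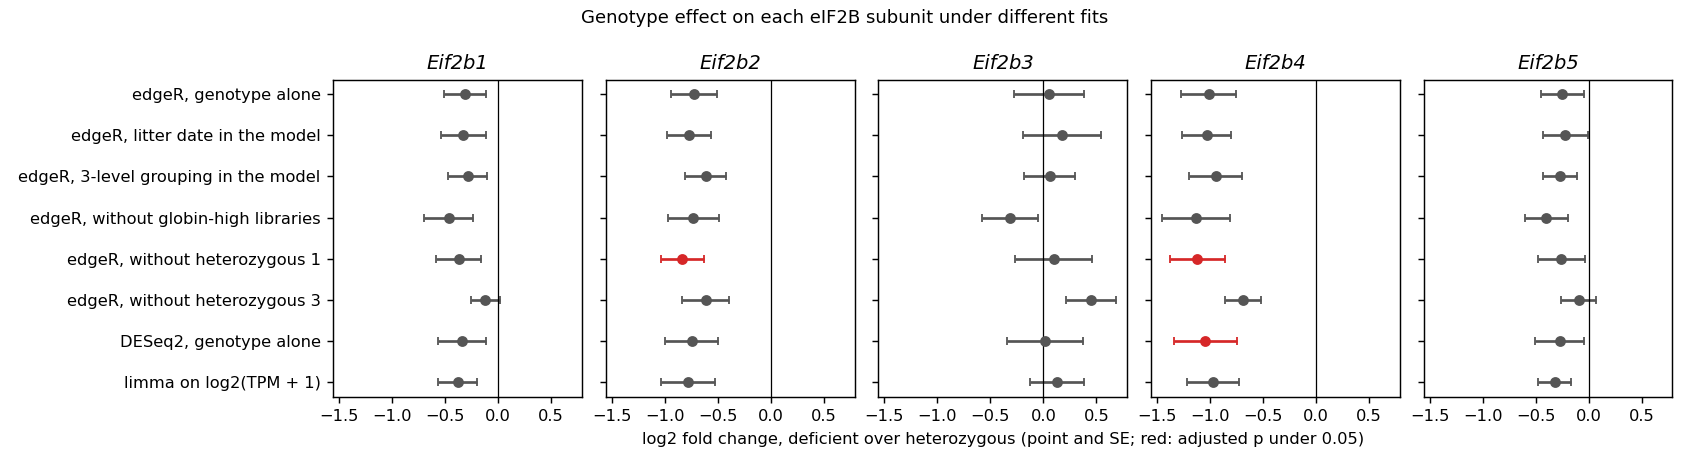
Log2 fold change (deficient over heterozygous, x axis, with SE bars) of each subunit under 8 of the fits that were run, red where the adjusted p is under 0.05. Eif2b2 and Eif2b4 stay below 0 in each fit drawn, Eif2b4 between -0.69 and -1.13, while Eif2b3 lies on either side of 0.

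Levels of different genes were compared in TPM, a deposited value scaled to transcript length and library total. In the order of mean TPM over all 10 libraries, Eif2b1 (85.2 ± 20.3, SD) was followed by Eif2b3 (82.5 ± 26.0), Eif2b5 (49.2 ± 8.95), Eif2b2 (30.0 ± 12.8) and Eif2b4 (21.5 ± 11.3). The neighbours Eif2b1 and Eif2b3 did not differ beyond the spread, with a mean log2 difference of 0.07 ± 0.50 (SD) and Eif2b1 higher in 4 of 10 libraries (adjusted p = 0.645, two-sided exact sign-flip permutation test, 4 neighbour pairs). The mean difference was 0.33 in heterozygous and -0.19 in deficient libraries. That pair changed order with the libraries: without the globin-high libraries Eif2b3 was the higher, by 0.19 ± 0.18 (exact permutation adjusted p = 0.0469). The 3 lower steps each held in 9 of 10 libraries, by 0.70 ± 0.44 for Eif2b3 over Eif2b5, 0.81 ± 0.49 for Eif2b5 over Eif2b2 and 0.51 ± 0.29 for Eif2b2 over Eif2b4 on the log2 scale (adjusted p = 0.00521 each, exact permutation test). The exception to the last step was heterozygous 3, with 46.1 TPM for Eif2b4 and 42.1 TPM for Eif2b2. The regulatory subunits beta and delta were therefore the least abundant of the 5 messages, and alpha among the most abundant.

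**Figure D3:**
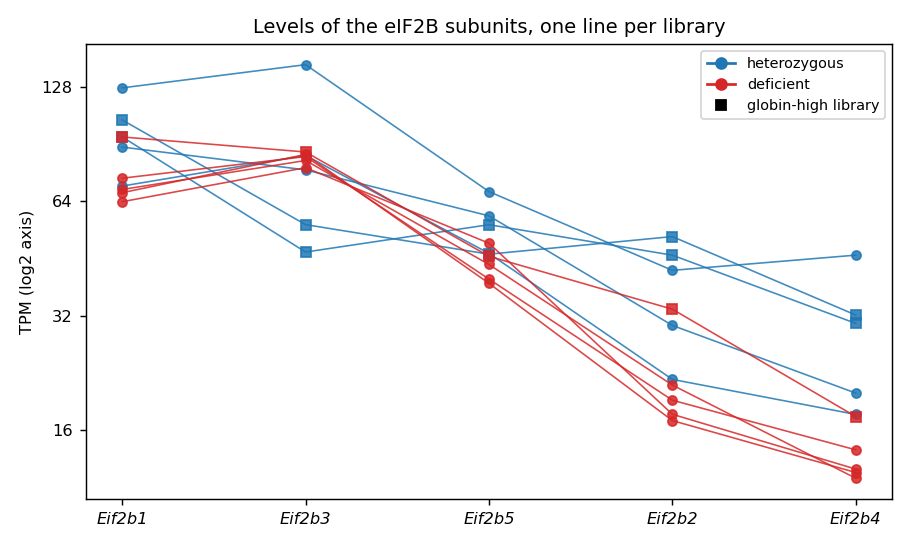
TPM (log2 axis) of the 5 subunits in order of their mean, 1 line per library, heterozygous in blue, deficient in red and globin-high libraries as squares. The deficient lines run close together down to 12.0 to 17.4 TPM for Eif2b4, while the heterozygous lines fan out, with Eif2b3 at 47.0 and 55.5 TPM in the globin-high heterozygous libraries.

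Since the subunits work in 1 complex, the make-up of their summed TPM was also described. The sum was 302 ± 73.5 TPM (SD, n = 5) in heterozygous and 235 ± 23.6 TPM (SD, n = 5) in deficient libraries, with 429 TPM in heterozygous 3, 240 to 290 TPM in the other heterozygous libraries and 277 TPM in deficient 5. Eif2b4 made up 7.29% to 11.2% of the sum in heterozygous libraries and 5.27% to 6.27% in deficient libraries, so that its share, like its level, did not overlap between genotypes. Share and level come from the same TPM values, so this is not a separate result. How often such shares fail to overlap for other genes was not counted. The share of Eif2b2 ran from 9.05% to 17.8% and from 7.69% to 12.0%, highest in the 3 globin-high libraries. The share of Eif2b3 moved the other way, at 19.1% and 17.2% in heterozygous 4 and 5 against 28.1% to 38.5% elsewhere. Eif2b5 kept the most even mean share, at 18.6% ± 2.52 (SD, n = 5) in heterozygous and 18.6% ± 2.30 (SD, n = 5) in deficient libraries, and Eif2b1 stood at 32.3% ± 3.01 and 31.1% ± 2.01 (SD, n = 5 each).

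**Figure D4:**
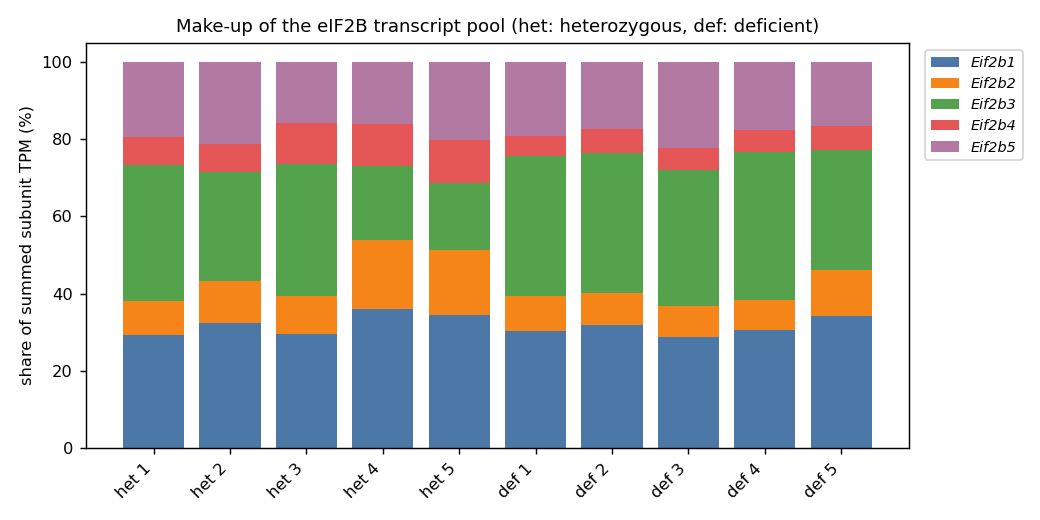
Share of each subunit in the summed TPM of the 5 subunits (percent, stacked to 100) for each library. The Eif2b4 segment is 7.29% or more in heterozygous and 6.27% or less in deficient libraries, and the Eif2b3 segment is smallest in heterozygous 4 and 5.

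Across the 10 libraries the regulatory subunits varied together in log2 CPM. Among the 10 pairs of subunits, Eif2b2 and Eif2b4 had a Pearson r of 0.89 (adjusted permutation p = 0.00280) and a Spearman rho of 0.85 (adjusted permutation p = 0.0150). Eif2b1 and Eif2b4 had r = 0.89 and rho = 0.83 (adjusted permutation p = 0.00390 and 0.0158), and Eif2b1 and Eif2b2 had r = 0.73 and rho = 0.85 (adjusted permutation p = 0.00350 and 0.0150). Without the 2 libraries farthest from the median of the gene named first, these were r = 0.83, 0.68 and 0.71. The remaining 7 pairs did not pass, and no test compared one pair with another. Within genotype, r was 0.73 for Eif2b2 and Eif2b4, 0.92 for Eif2b1 and Eif2b4 and 0.62 for Eif2b1 and Eif2b2. With Eif2b3 it was 0.70 for Eif2b1, 0.50 for Eif2b4 and -0.08 for Eif2b2. With Eif2b5 it was 0.60 for Eif2b1, 0.49 for Eif2b4 and -0.03 for Eif2b2. The catalytic pair, Eif2b3 and Eif2b5, had a within-genotype r of 0.81, above Eif2b2 with Eif2b4. Within genotype, a high r was therefore not particular to the regulatory subunits. Between Eif2b2 and Eif2b3, r was -0.22 (adjusted permutation p = 0.604) over all libraries and 0.74 over the 7 libraries that were not globin-high, in which all 10 pairs had an r from 0.70 to 0.98. These values share each library's depth, genotype and heterozygous 3, and they describe these libraries.

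The genes whose log2 CPM was most like that of each subunit over the 10 libraries were taken from 8990 expressed genes. They were Cdkn2aipnl, Alas1 and Rpusd1 for Eif2b2 (r = 0.99, 0.98 and 0.98), Aplf, Prss48 and Ccdc115 for Eif2b4 (r = 0.99, 0.98 and 0.97), and Rbm5, Trp53i13 and Ints12 for Eif2b1 (r = 0.99, 0.98 and 0.98). For Eif2b3 they were Gpr160, Itga2b and Glmn (r = 0.99, 0.99 and 0.98), and for Eif2b5 they were Lrrc59, Ripk2 and Rcan1 (r = 0.96, 0.95 and 0.95). No gene was among the most alike of more than 1 subunit. These r are the highest of many candidates over 10 libraries, so they are high by selection. For the 3 genes most like Eif2b1, Spearman's rho was lower, at 0.85, 0.79 and 0.84, and heterozygous 3 stood far above the other libraries for Eif2b1. For the genes of the other subunits rho was 0.92 to 0.99.

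The other genes of the eIF2 cycle were read from fixed lists. In none did edgeR call a member, as in the genes at large (0.00%), and medians are given beside the -0.02 of all genes. For eIF2 itself and the loading of its tRNA, 7 of 8 listed genes were tested, with a median log2 fold change of -0.22, and 5 were negative. The median was -0.09 without heterozygous 5 and -0.12 without deficient 2. Eif2s1, the alpha subunit that the stress kinases phosphorylate, was at 579 ± 231 CPM and 610 ± 103 CPM (SD, n = 5 each), with groups that overlapped. Eif2s2, the beta subunit, had means of 290 ± 109 and 423 ± 95.6 CPM (SD, n = 5 each, heterozygous first). Its log2 fold change of 0.55 ± 0.27 (SE, adjusted p = 0.320 by edgeR) lay on the other side of 0 from the eIF2B regulatory subunits. Mars, the cytosolic methionyl-tRNA synthetase, was at 206 ± 60.8 and 137 ± 28.6 CPM (-0.59 ± 0.22, SE) and is called lower in the authors' deposited table (adjusted p = 0.0478), beside 3.36% of the genes with an adjusted p there. Eif2a, a separate initiation factor that is not an eIF2 subunit, had a log2 fold change of -0.41 ± 0.18 (SE). The gene not tested was the Y-linked Eif2s3y, with at most 0.0613 CPM in any library.

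Of the 4 kinases that phosphorylate eIF2, Eif2ak1 (the haem-regulated kinase HRI) was the most abundant in CPM, with means of 66.0 ± 8.93 and 52.3 ± 8.76 CPM (SD, n = 5 each) and a log2 fold change of -0.34 ± 0.18 (SE, adjusted p = 0.348 by edgeR). Eif2ak4 (GCN2, the sensor of amino acid shortage), Eif2ak3 (PERK, the sensor of the endoplasmic reticulum) and Eif2ak2 (PKR, the sensor of double-stranded RNA) had log2 fold changes of 0.08, 0.28 and -0.00, with SEs from 0.21 to 0.29. Impact, an inhibitor of GCN2 activation and an imprinted gene, had the largest difference of this list, at -0.91 ± 0.33 (SE, adjusted p = 0.214 by edgeR). Its highest values were 26.3 and 22.1 CPM in the globin-high heterozygous 4 and 5, against 6.99 to 12.0 CPM elsewhere. The list's median was 0.03 over 6 tested genes and lay on either side of 0 with 1 library left out, from -0.12 without deficient 3 to 0.07 without deficient 4.

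Ppp1r15a (GADD34) and Ppp1r15b (CReP), which direct the phosphatase that removes the phosphate from eIF2, showed -0.17 ± 0.30 and 0.06 ± 0.24 (SE) on the log2 scale, and the median of the phosphatase list was 0.06 over 5 genes. That median turned negative without deficient 3 (-0.17), heterozygous 4 (-0.12), deficient 4 (-0.04) or heterozygous 5 (-0.03). Of the catalytic subunits, Ppp1cb was at 0.38 and Ppp1ca at -0.44. Among factors of GTP hydrolysis and the eIF5 mimics (median -0.18 over 5 genes, and 0.10 without heterozygous 3), Eif5b, the GTPase of subunit joining, had means of 195 ± 38.9 and 296 ± 64.5 CPM (0.60 ± 0.21, SE, adjusted p = 0.199 by edgeR). The mimics Bzw1 and Bzw2 had log2 fold changes of -0.30 and -0.40. Over 30 tested factors of the 43S complex and of cap binding the median was -0.01, with 15 negative and 15 positive, and it was 0.16 without the globin-high libraries and 0.06 without heterozygous 5. Pabpc1, the poly(A)-binding protein, had means of 368 ± 22.9 and 519 ± 109 CPM (0.50 ± 0.19, SE, adjusted p = 0.227 by edgeR), and Eif3g, a subunit of eIF3, had means of 469 ± 129 and 333 ± 36.1 CPM (-0.49 ± 0.21, SE, adjusted p = 0.266 by edgeR). Eif4ebp1, the repressor of the cap-binding protein eIF4E, had means of 40.6 ± 24.4 and 17.1 ± 4.62 CPM (-1.25 ± 0.36, SE, adjusted p = 0.155 by edgeR), highest in the globin-high heterozygous 4 and 5 at 50.6 and 78.2 CPM, and is called lower in the authors' deposited table (adjusted p = 0.00901), beside 3.36% of the genes with an adjusted p there.

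Genes downstream of phosphorylated eIF2 were read next. Of 40 listed genes of the ATF4 pathway 38 were tested, 28 had a negative and 10 a positive log2 fold change, and the median was -0.17. None was called by edgeR or by DESeq2 or in the authors' deposited table. Atf4, the transcription factor of the pathway, was at 35.5, 46.7, 24.2, 79.7 and 99.2 CPM in heterozygous 1 to 5 and at 47.8, 35.9, 33.6, 25.7 and 65.4 CPM in deficient 1 to 5. It was highest in the 3 globin-high libraries in both genotypes, and its log2 fold change was -0.45 ± 0.36 (SE, adjusted p = 0.554 by edgeR). Its targets Ddit3 (CHOP) and Asns (asparagine synthetase) showed -0.31 ± 0.24 and -0.12 ± 0.25 (SE). Aldh18a1 and Shmt2, enzymes of proline and of serine and glycine metabolism, were at -0.88 ± 0.32 and -0.61 ± 0.27 (SE), and Phgdh, named after its value was seen as the farthest from 0, at -1.49 ± 0.69 (SE). Tars, the threonyl-tRNA synthetase, was the 1 member of the 38 tested whose genotypes did not overlap in CPM, beside 1.60% of all genes in that direction, and it did overlap in TPM, with means of 96.2 ± 21.6 and 67.7 ± 4.97 CPM (-0.51 ± 0.18, SE, adjusted p = 0.202 by edgeR). Transcript levels do not measure phosphorylation or the translation of Atf4.

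**Figure D5:**
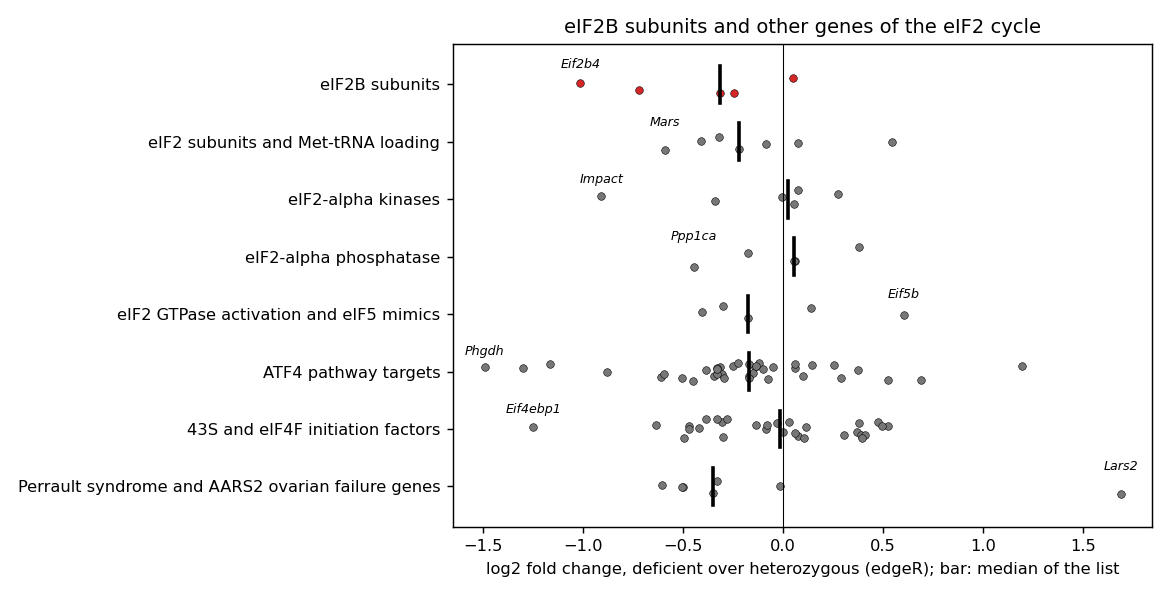
Log2 fold change (deficient over heterozygous, x axis, edgeR on genotype alone) of the tested genes of each list, 1 point per gene, with a bar at the list's median and the gene farthest from 0 named. The subunits run from -1.01 for Eif2b4 to 0.05 for Eif2b3, and the lists of the eIF2 cycle have medians between -0.22 and 0.06.

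Finally, the genes of other inherited disorders that join ovarian failure to a translation or mitochondrial defect (Perrault syndrome and the disorder of the mitochondrial alanyl-tRNA synthetase AARS2) were set beside the subunits. Of 7 tested genes 6 had a negative log2 fold change and the median was -0.35. Hars2, the mitochondrial histidyl-tRNA synthetase, was at 63.8 ± 16.1 and 45.1 ± 5.29 CPM (-0.50 ± 0.21, SE), and Clpp, a mitochondrial protease subunit, at 162 ± 45.3 and 114 ± 13.1 CPM (-0.51 ± 0.21, SE). Lars2, the mitochondrial leucyl-tRNA synthetase gene, went the other way, at 2204 ± 1183 and 7100 ± 1881 CPM (1.69 ± 0.45, SE, adjusted p = 0.145 by edgeR), with no overlap between genotypes and a call in the authors' deposited table (adjusted p = 0.000757). Of all genes tested, 3.53% did not overlap in either direction. Of the genes with an adjusted p in the authors' table, 6.55% are called in either direction. The mean TPM of Lars2 was 7207 in heterozygous and 21081 in deficient libraries, against at most 284 for any other gene of the list, and whether all reads counted for Lars2 come from the synthetase message was not tested.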

How the data were processed

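The deposited counts are whole numbers per gene. The authors' TPM values were deposited beside them. The submitters' processing notes list, without roles, Trim Galore 0.5.0, FastQC 0.11.5, HISAT2 2.1.0, SAMtools 1.9, StringTie 1.3.3b, featureCounts, Subread 1.6.2, DESeq2 and the build GRCm38. Per the file headers, the authors' DESeq2 table holds for each gene a mean normalized count (a signal), the log2 fold change with its error, the Wald score, and raw and adjusted p-values. Counts were tested with edgeR 4.0.16 (quasi-likelihood, genotype alone, TMM scaling, edgeR's expression filter, 19244 genes, Benjamini-Hochberg) in R 4.3.3. SEs were derived from the fold change and the F statistic of its test. Neighbouring TPM levels were compared as log2(TPM + 0.1) within libraries, and correlations used 100000 resamples. Genes without a symbol, 382 in all, took 0.0632% to 0.0945% of the counts. Alternatives used DESeq2 1.42.0, limma 3.58.1, other scalings, filters and covariates, and libraries left out. The members and gene lists were chosen with earlier results of these data known. Named genes were the subunits, the pathway's main nodes, the 3 genes of each list with the smallest p (or called), the 3 genes most like each subunit (symbol not a provisional one, mean log2 CPM of at least 3) and genes within 1000 bases of a subunit. A 3-level grouping of libraries was found from the library weights in the authors' deposited log2 fold changes. Used as a DESeq2 covariate, it rebuilt all 31181 of these fold changes within 0.00555. The number of genes called was 1172 in both, and the called genes were not compared one by one.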

Additional observations from a re-analysis of the deposited data

Results flagged for a closer look

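Some libraries lay far from the other 4 of their genotype, by Dixon's test at the 95% level, which chance alone would mark in about 1 group of 20, and 76 groups of 5 were tested. Heterozygous 3 stood above the other heterozygous libraries for Eif2b1, at 316 CPM against 173 to 187 CPM, and for Eif2b4, at 116 CPM against 42.4 to 58.7 CPM. It did so as well for Mars, at 313 CPM against 163 to 191 CPM. Deficient 5 stood above the other deficient libraries for Eif2b2, at 46.7 CPM against 30.5 to 34.7 CPM and, in TPM, at 33.3, and for Impact, at 12.0 CPM against 6.99 to 7.73 CPM. Deficient 3 stood above the other deficient libraries for Mars, at 187 CPM against 118 to 133 CPM, and for Eif2ak4, at 34.2 CPM against 21.7 to 25.2 CPM.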

How the results depend on the processing

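Eif2b1, Eif2b2, Eif2b4 and Eif2b5 had a negative log2 fold change under all 29 alternatives, from -0.56 to -0.03, -1.15 to -0.27, -1.33 to -0.64 and -0.42 to -0.10, with the smallest sizes within single litter dates or without heterozygous 3. The number of genes called, 0 by edgeR, was 706 by DESeq2, 510 by limma voom with quality weights, 251 without the low-count filter, 104 with the grouping behind the deposited fold changes in edgeR, and 0 to 606 with 1 library left out (606 without heterozygous 1). The alternatives chosen after seeing the data gave 1172 genes for DESeq2 with that grouping, 1863 with litter date and 185 without the globin-high libraries. Of the 5 subunits, 1 was called by DESeq2 and 1 by limma voom (Eif2b4, -1.04 and -0.82), 2 by DESeq2 with the grouping (Eif2b4 -0.97, Eif2b2 -0.64), 2 with litter date (-1.06 and -0.80), and 0 to 2 with 1 library left out. Leaving out 1 library gave -1.13 to -0.69 for Eif2b4, -0.86 to -0.62 for Eif2b2 and -0.12 to 0.45 for Eif2b3. Eif2b3 turned negative without the globin-high libraries (-0.32, and -0.35 by DESeq2), without heterozygous 4 (-0.11) and without heterozygous 5 (-0.12), and was 1.07 within litter date 3. Within litter dates Eif2b2 was -0.27 on the first and -1.15 on the second, and Eif2b1 -0.032 on the third. List medians went from -0.29 to 0.10 for GTPase activation and the eIF5 mimics (0.10 without heterozygous 3) and from -0.24 to -0.11 for ATF4 targets with 1 library left out, and to 0.16 for 43S and eIF4F factors without the globin-high libraries. Eif2b1 over Eif2b3 was -0.19 without those libraries and -0.033 to 0.12 with 1 library left out (-0.02 without heterozygous 4, -0.033 without heterozygous 5). With the replicate number as a block edgeR called 1 gene and no subunit. Same-numbered libraries deviated together with correlations from -0.26 to 0.59 and 1 of 5 numbers matched best with itself, so the numbers do not pair the libraries. The causes were not tested.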
